A study of Saccharomyces cerevisiae with 6 samples.

Results

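The genes of ergosterol synthesis and the transcription factors that tie this pathway to oxygen and heme were followed through 3′ end libraries of budding yeast, Saccharomyces cerevisiae. The set was chosen by gene identity and holds 32 genes: the ERG genes, HMG1, HMG2, IDI1 and MVD1, the electron donors NCP1 and CYB5, the sterol acyltransferases ARE1 and ARE2, and the regulators UPC2, ECM22, HAP1, ROX1 and MOT3. The deposited table holds 28 of them among its 4014 genes. ERG12, ERG7, ERG4 and ARE1 were not analysed here. The study compared 3 libraries from yeast with JHD2 deleted and 3 libraries from wild-type yeast, all from cultures in mid-log phase. JHD2 encodes the KDM5-type histone lysine demethylase of yeast, and the study asked about the length of 3′ untranslated regions. No other allele, strain background or medium is named in the labels for either group. The method was 3′READS: fragments with a poly(A) tail are captured so that each read marks the cleavage and polyadenylation (pA) site of 1 transcript. Nothing says that replicates came from separate cultures, so a p-value here reflects variation among these 6 libraries, part of which may be technical.

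Ergosterol is the sterol of fungal membranes, where it takes the place that cholesterol has in animals. Its carbon skeleton is built from acetyl-CoA through mevalonate and farnesyl diphosphate to squalene. Later steps, several of which consume molecular oxygen and some of which need heme, turn squalene into lanosterol, zymosterol and ergosterol. When sterols run low, the zinc-cluster activators Upc2 and Ecm22 raise transcription of ERG genes through sterol response elements, while heme-bound Hap1 and the repressors Rox1 and Mot3 adjust part of the pathway to the supply of oxygen.

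The libraries held 233749 to 480847 reads at the clusters of the table. Correlations of log levels between libraries were 0.938 to 0.948 for pairs with wild-type replicate 2 and 0.959 to 0.975 for the others. JHD2 has no cluster in the table, so the deletion itself could not be checked. Of 3 alpha-cell markers all were in the table, with a summed level of 9665 to 13858 counts per 1e6 reads (CPM). Of 6 a-cell markers STE2 and STE6 were in the table, with a summed level of 2.71 to 25.3 CPM. The 28 sterol and regulator genes had 94 clusters and 15533 reads, 0.717% of the reads of the table. Single genes had between 25 and 1884 reads, with a median of 367 against 179 over all genes.

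The sterol response element is shown first because it is the promoter feature that ties the enzymes to Upc2 and Ecm22. Its core, TCGTATA, was searched on both strands in the 500 bases before each start codon in the RefSeq R64 sequence, the assembly also known as sacCer3. It was found for 9 of the 32 genes (28.1%), against 420 of 6002 genes in all (6.998%). These were ERG13, ERG8, ERG1, ERG25, ERG28, ERG6, ERG2, ERG3 and CYB5, and ERG13, ERG25 and ERG3 had 2 matches each. Examples from separate steps of the pathway follow, 5′ to 3′ on the strand of the gene, with the match in capitals.
ERG13 at chrXIII:20731-20760, minus strand: cggaataagctTCGTATAtacaatagaaaa
ERG1 at chrVII:848787-848816, minus strand: gtagcgggcctTCGTATAgctcggccgagc
ERG25 at chrVII:610070-610099, plus strand: actgcctccctTCGTATAcgggacacagag
ERG6 at chrXIII:253404-253433, minus strand: agccccgatctTCGTATAtggtacctcgtt
ERG2 at chrXIII:667341-667370, plus strand: aaccacggcccTCGTATAagccgcaaggaa
ERG3 at chrXII:253564-253593, plus strand: aaaattcaggcTCGTATAagtggcacaata
The matches lay 214 bases before the start codon in ERG13, 382 in ERG1, 483 in ERG25, 432 in ERG6, 185 in ERG2 and 286 in ERG3. A match is a string in the sequence and not a measured binding site. The core of the Rox1 motif, ATTGTT, was found in the same window for 21 of 32 genes (65.6%), against 48.9% of all genes. The Hap1 motif, searched as CGG, any 3 bases, TA, any base and CGG, was found for 0 of 32, against 0.350% of all genes.

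Most pA sites of the pathway genes lay past the stop codon. The table holds only genes with at least 2 clusters, and the median was 3 for the pathway genes and for all genes. The most-read cluster lay past the stop codon in 26 of the 28 genes, from 54 nt in IDI1 to 304 nt in ERG25. Its median position over the 28 genes was 149.5 nt past the stop codon, against 124 nt over all genes. For 10 of the 28 it lay farther out than 182 nt, the upper quartile of all genes: ERG25 at 304 nt, ROX1 at 296, UPC2 at 280, ERG11 at 276, CYB5 at 254, NCP1 at 220, ERG13 at 217, ERG3 at 215, ECM22 at 201 and ERG26 at 200. These 10 included enzymes, electron donors and regulators. Other enzymes had main ends nearer than the all-gene median of 124 nt, among them IDI1 at 54 nt, ERG2 at 63 and ERG8 at 67. The main cluster held 90% or more of the reads in 7 genes and under 60% in 7 others, with a median share of 76.8% against 71.4% over all genes. It lay inside a gene of the opposite strand in 4 of the 28 (14.3%, against 10.7% of all genes): NCP1 into DOG2, ERG9 into CTF8, ERG27 into APC9 and MOT3 into TVP18. The strand of these clusters was taken from the gene they were assigned to, and the direction of the reads was not checked here.

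**Figure D1:**
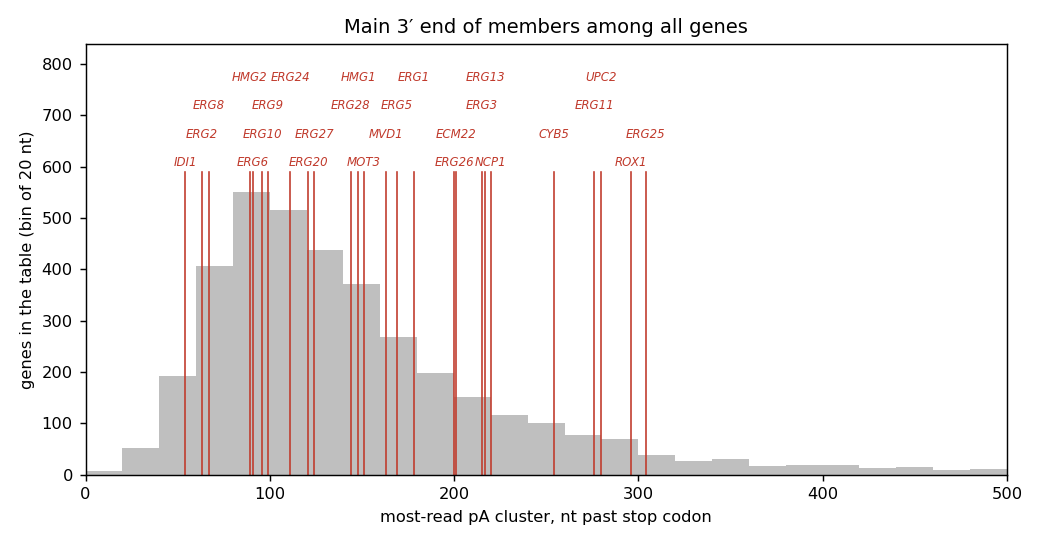
Position of the most-read pA cluster in nt past the stop codon. Grey bars count all genes in bins of 20 nt, and red lines mark the 26 ergosterol and regulator genes whose main cluster lies past the stop codon, from IDI1 at 54 nt to ERG25 at 304 nt.

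The AU-rich elements that precede yeast pA sites were searched in the 100 bases before the main cluster, on the strand of the gene. TATATA was found for 16 of the 28 genes (57.1%), against 45.1% of all genes. TACATA was found for 8 (28.6%, against 21.6%) and AATAAA for 2 (7.14%, against 20.7%). Clusters before the stop codon were present in 13 of the 28 genes (46.4%), against 39.4% of all genes. They held few reads: 96.8% of the reads of the 28 genes lay past the stop codon, against 97.8% over all genes.

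Deletion of JHD2 was not accompanied by a detectable change in the mRNA level of any ergosterol gene or regulator. For level, the reads of all clusters of a gene were summed and tested with edgeR's quasi-likelihood test over all genes, and genes with a Benjamini-Hochberg adjusted p under 0.05 were called. That test called 44 of 3366 genes (1.31%), of which 36 were higher (1.07%) and 8 lower (0.238%) in the deletion. It called 0 of the 27 pathway genes it could test, and the lowest adjusted p among them in edgeR was 0.41. At an unadjusted p under 0.05, 1 of the 27 passed, ERG6 (3.70%, against 9.83% of all genes), and 0 of the 27 passed that level with DESeq2. DESeq2 gave an adjusted p for 24 of the 27, all but IDI1, CYB5 and UPC2, and called 0 of the 24. ARE2, with 25 reads, was under the low-count filter and was not tested. The log2 fold changes, deletion over wild type, ran from -0.45 to 0.44 with a median of 0.06, against -0.00026 over all genes. For 25 of the 27 the 95% interval lay within 1 log2 unit of 0, the exceptions being IDI1, with an upper bound of 1.09, and UPC2, with a lower bound of -1.04. The summed level of the 28 genes was 6936, 7618 and 7251 CPM in deletion replicates 1, 2 and 3 and 7596, 6926 and 7016 CPM in wild-type replicates 1, 2 and 3. The groups overlapped, with means of 7268 ± 341 and 7180 ± 364 CPM (SD, n = 3 each).

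**Figure D2:**
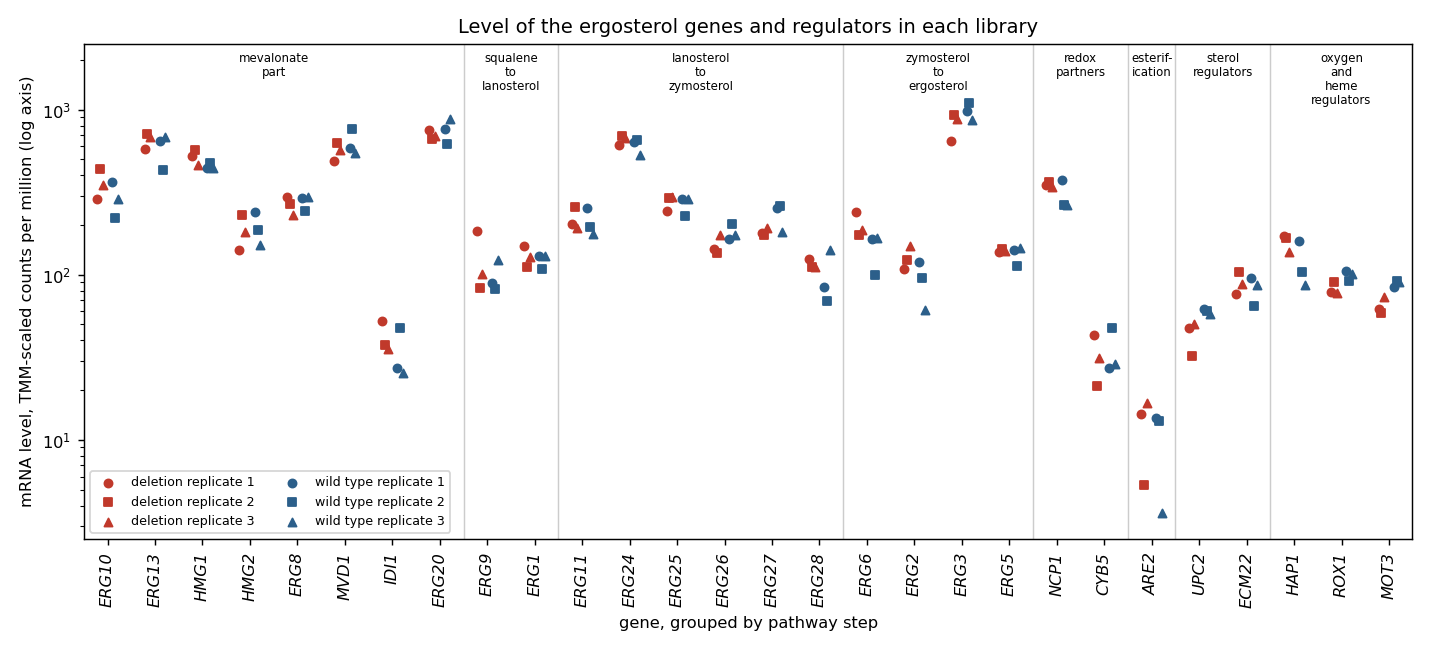
mRNA level of the 28 genes in CPM (TMM-scaled) on a log axis, 1 point per library, grouped by pathway step. Red marks the 3 deletion libraries and blue the 3 wild-type libraries, and the groups overlap in all tested genes but ERG6, UPC2, ROX1 and MOT3.

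In the following, levels are listed for replicates 1, 2 and 3 of the deletion and then for replicates 1, 2 and 3 of the wild type, and means are given with the SD of 3 libraries. Since 3′READS counts at most 1 end per transcript, levels were not divided by length, and they are compared between libraries rather than between genes.

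The mevalonate steps, which end in farnesyl diphosphate, had 8 tested genes, with log2 fold changes from -0.15 to 0.38 and a median of 0.03. ERG10, the acetoacetyl-CoA thiolase of the first step, had 288, 438 and 349 CPM in the deletion and 366, 221 and 289.6 CPM in the wild type. The highest library was a deletion library and the lowest a wild-type library, but the ranges overlapped. The log2 fold change of ERG10 was 0.26 (SE 0.18, adjusted p in edgeR 0.66), and it ran from 0.090 without deletion replicate 2 to 0.46 without wild-type replicate 1. The HMG-CoA reductases, the committed and rate-limiting enzymes of the pathway, are encoded by the paralogs HMG1 and HMG2. HMG1 had 525, 569 and 462 CPM in the deletion and 445, 473 and 442 CPM in the wild type. Only the lowest deletion library fell within the range of the wild type. Means were 519 ± 53.4 and 453 ± 17.2 CPM, a log2 fold change of 0.19 (SE 0.15, adjusted p in edgeR 0.71). HMG2 had 141, 229.5 and 183 CPM in the deletion and 239, 187 and 152 CPM in the wild type. Here the groups covered much the same range, with means of 185 ± 44.1 and 192 ± 43.7 CPM and a log2 fold change of -0.09 (SE 0.19, adjusted p in edgeR 0.92). The remaining steps were alike in having overlapping groups: log2 fold changes were 0.14 for the HMG-CoA synthase ERG13, -0.08 for the phosphomevalonate kinase ERG8, -0.15 for the decarboxylase MVD1, 0.38 for the isopentenyl diphosphate isomerase IDI1 and -0.10 for the farnesyl diphosphate synthase ERG20. IDI1 rested on 81 reads in all 6 libraries, and its SE was 0.35, against 0.14 for ERG20.

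The steps from squalene to lanosterol had ERG9 and ERG1 in the table. ERG9, the squalene synthase that draws farnesyl diphosphate into sterols, had 184, 82.7 and 101 CPM in the deletion and 89.6, 82.5 and 123 CPM in the wild type. Deletion replicate 1 was above every other library, and the other 5 lay between 82.5 and 123 CPM. The log2 fold change of ERG9 was 0.32 (SE 0.25, adjusted p in edgeR 0.71) and was -0.09 without deletion replicate 1. ERG1, the squalene epoxidase and the first oxygen-consuming step, had means of 129.6 ± 18.3 CPM in the deletion and 123 ± 12.6 CPM in the wild type, with a log2 fold change of 0.07 (SE 0.20).

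All 6 genes from lanosterol to zymosterol were tested, with log2 fold changes from -0.34 to 0.24 and a median of 0.03. ERG11, the cytochrome P450 lanosterol demethylase that azole drugs inhibit, had 204, 256 and 191 CPM in the deletion and 252, 195 and 177 CPM in the wild type. The groups overlapped almost fully, with a log2 fold change of 0.03 and a 95% interval from -0.33 to 0.39. The next enzymes form a complex that removes a pair of methyl groups from the sterol ring: the methyl oxidase ERG25, the decarboxylase ERG26, the keto reductase ERG27 and the scaffold ERG28. ERG27 had 179.7, 173 and 193 CPM in the deletion and 252, 260.4 and 181 CPM in the wild type. Only wild-type replicate 3 lay within the range of the deletion. Means were 182 ± 10.1 and 231 ± 43.7 CPM, a log2 fold change of -0.34 (SE 0.18, adjusted p in edgeR 0.53). The log2 fold change was -0.23 for ERG26, in the direction of ERG27, and 0.04 for ERG25 and 0.24 for ERG28, none of them past the test. ERG24, the sterol reductase between ERG11 and this complex, had a log2 fold change of 0.12 (SE 0.14).

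Of the final steps from zymosterol to ergosterol, ERG6, ERG2, ERG3 and ERG5 were tested, with a median log2 fold change of 0.24. ERG6, the sterol methyltransferase that marks fungal sterols with an extra side-chain carbon, had 239.6, 173 and 187 CPM in the deletion and 166, 99.8 and 167 CPM in the wild type. Every deletion library was above every wild-type library, by a narrow margin between 173 and 167 CPM. ERG6 was the only gene of the 22 tested enzymes and electron donors with groups apart, against 15.6% of all genes. Means were 200.03 ± 34.9 and 144 ± 38.2 CPM, and the log2 fold change was 0.44 (SE 0.20, 95% interval 0.05 to 0.84), with an adjusted p in edgeR of 0.41. Without wild-type replicate 2 it was 0.26 (SE 0.19, adjusted p in edgeR 0.72). ERG2, the isomerase that follows, had 108, 123 and 149 CPM in the deletion and 119, 95.5 and 61.5 CPM in the wild type. The groups overlapped through deletion replicate 1 and wild-type replicate 1. The log2 fold change of ERG2 was 0.43 (SE 0.23, adjusted p in edgeR 0.54), 0.71 without wild-type replicate 1 and 0.22 without wild-type replicate 3. ERG3, the oxygen-dependent desaturase of the sterol ring, had 642, 926 and 880.4 CPM in the deletion and 977, 1094 and 862 CPM in the wild type. Deletion replicate 1 was lowest, and the other deletion libraries lay near the low end of the wild type. Means were 816 ± 153 and 977 ± 116 CPM, a log2 fold change of -0.26 (SE 0.15, adjusted p in edgeR 0.57), which was -0.11 without deletion replicate 1. ERG5, the cytochrome P450 desaturase of the side chain, had means of 139.8 ± 3.90 and 133 ± 17.5 CPM and a log2 fold change of 0.06 (SE 0.20).

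ERG1, ERG11, ERG25, ERG3 and ERG5 use oxygen directly. Their log2 fold changes had a median of 0.04, with 4 above 0 and ERG3 below, and 0 passed the test. The electron donors gave 0.19 (SE 0.16) for NCP1, the reductase that feeds cytochromes P450, and -0.04 (SE 0.37) for CYB5, the cytochrome b5 that serves the desaturation steps. The acyltransferase ARE2, which stores sterols as esters, had 6, 2 and 8 reads in deletion replicates 1 to 3 and 5, 3 and 1 in those of the wild type, too few for a fold change. The 9 tested genes with a TCGTATA match had log2 fold changes from -0.26 to 0.44 with a median of 0.07, and the other 18 had a median of 0.04.

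**Figure D3:**
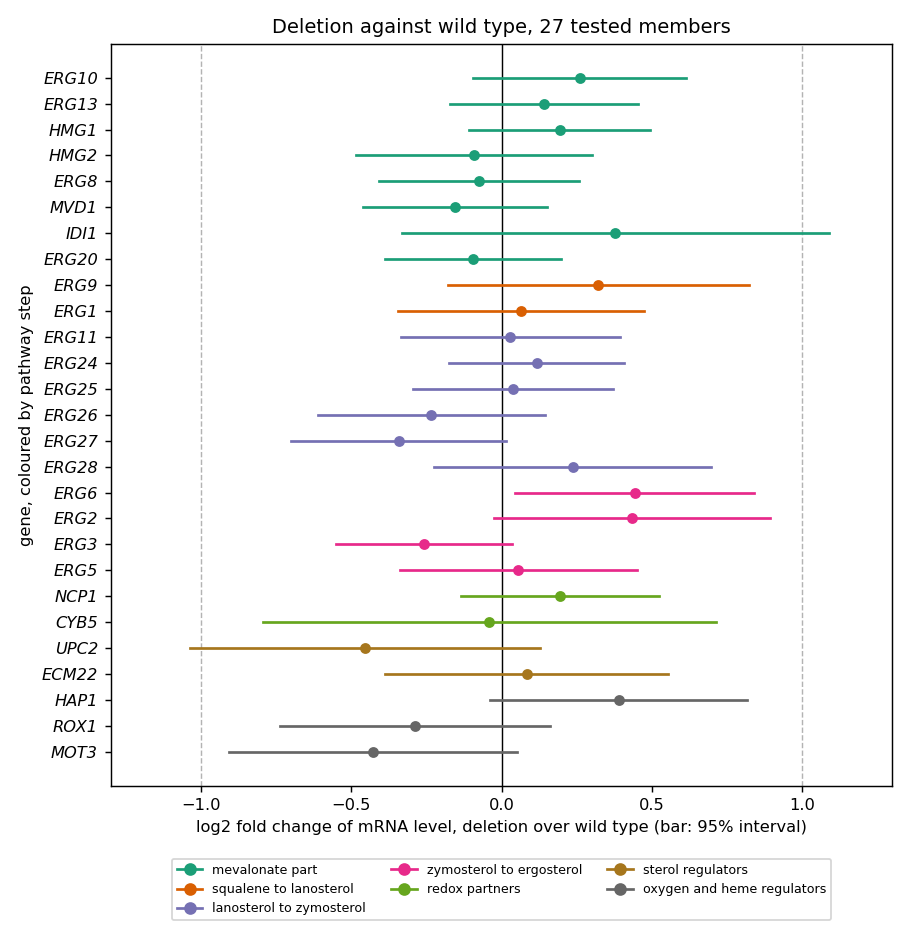
Log2 fold change of mRNA level, deletion over wild type, for the 27 tested genes coloured by pathway step, with bars for the 95% interval from the edgeR fit. Points lie between -0.45 (UPC2) and 0.44 (ERG6), and only the interval of ERG6, from 0.05 to 0.84, leaves out 0.

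Among the regulators, UPC2, ROX1 and MOT3 had every deletion library below every wild-type library, and none of them passed the test. Groups that do not overlap were found for 4 of the 27 tested genes (14.8%), against 15.6% of all genes. Of these 4, ERG6 was higher in the deletion (8.62% of all genes were) and the 3 regulators were lower (6.95% of all genes were). UPC2, the sterol-sensing activator, had 47.9, 32.03 and 50.4 CPM in the deletion and 62.4, 60.8 and 57.9 CPM in the wild type. The wild-type libraries lay close together and deletion replicate 2 was lowest. Means were 43.5 ± 9.98 and 60.4 ± 2.27 CPM, a log2 fold change of -0.45 (SE 0.29, adjusted p in edgeR 0.63). With clusters past the stop codon alone the log2 fold change of UPC2 was -0.71, still short of the threshold. Its paralog ECM22 had 76.7, 104 and 88.3 CPM in the deletion and 94.99, 65.1 and 86.9 CPM in the wild type. The groups of ECM22 overlapped, with means of 89.7 ± 13.8 and 82.3 ± 15.5 CPM and a log2 fold change of 0.08 (SE 0.23, adjusted p in edgeR 0.95). The difference between the fold changes of the paralogs was not tested.

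MOT3, a zinc-finger repressor of hypoxic and ergosterol genes, had 62.3, 58.7 and 73.5 CPM in the deletion and 84.1, 91.1 and 90.5 CPM in the wild type. The gap between the groups was larger than the spread within the wild type but smaller than that within the deletion. Means were 64.9 ± 7.74 and 88.6 ± 3.87 CPM, a log2 fold change of -0.43 (SE 0.24, adjusted p in edgeR 0.56). ROX1, the repressor that silences hypoxic genes in air, had 79.1, 90.7 and 77.7 CPM in the deletion and 106, 91.1 and 101 CPM in the wild type. Deletion replicate 2 and wild-type replicate 2 were almost level, so the groups were barely apart. Means were 82.5 ± 7.16 and 99.4 ± 7.54 CPM, a log2 fold change of -0.29 (SE 0.22, adjusted p in edgeR 0.71), which was -0.09 when the most-read cluster alone was used. HAP1, the heme-responsive activator, had 173, 168 and 137 CPM in the deletion and 160.1, 104 and 86.9 CPM in the wild type. Deletion replicates 1 and 2 were above every wild-type library, and wild-type replicate 1 lay within the deletion range. Means were 159 ± 19.6 and 117 ± 38.3 CPM, a log2 fold change of 0.39 (SE 0.21, adjusted p in edgeR 0.55), which was 0.73 without wild-type replicate 1 (adjusted p in edgeR 0.18).

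The reads assigned to HAP1 ended almost entirely inside its coding region. HAP1 (YLR256W) lies at chrXII:646415-650923 on the plus strand, with 4509 nt from start to stop codon. In the RefSeq annotation a Ty1 retrotransposon on the same strand, chrXII:650824-656743, begins inside the last stretch of this coding region. Of 307 reads, 13 lay past the stop codon (4.23%), and their clusters fell within the Ty1 element. Reads were filtered for mapping quality, and how many ends in the Ty1 element that filter removed was not tested. The counts past the stop codon may therefore be too low. In the deletion 3 of 72, 2 of 63 and 0 of 65 reads lay past the stop codon, and in the wild type 5 of 59, 2 of 24 and 1 of 24. The 0 of 65 allows a share of up to 4.62%, counting error only. Such shares were rare: 34 genes in the table (0.847%) had under 10% of their reads past the stop codon. The past-stop shares had means of 2.45 ± 2.18% in the deletion and 6.99 ± 2.45% in the wild type, and their ranges met at 4.17%. Clusters 1944 and 1974 nt from the start codon, 30 nt apart, together held 245 of the 307 reads (79.8%). Deletion libraries had 55, 53 and 55 reads there and wild-type libraries 47, 15 and 20. Among the counted reads, the internal end was thus the main one in both genotypes and in every library. The sequence around each is given below on the plus strand, with the deposited position in capitals.
HAP1 site at 1944 nt, chrXII:648340-648369: ggtgcagtttgccatttttTacaacttcta
HAP1 site at 1974 nt, chrXII:648370-648399: tatgaaaagtgcctctaatGatttgactac
Neither site is followed by a run of A in the genome, with 4 and 3 A among the next 10 bases. The level of HAP1 above is therefore mostly a level of RNAs that end at these internal sites.

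**Figure D4:**
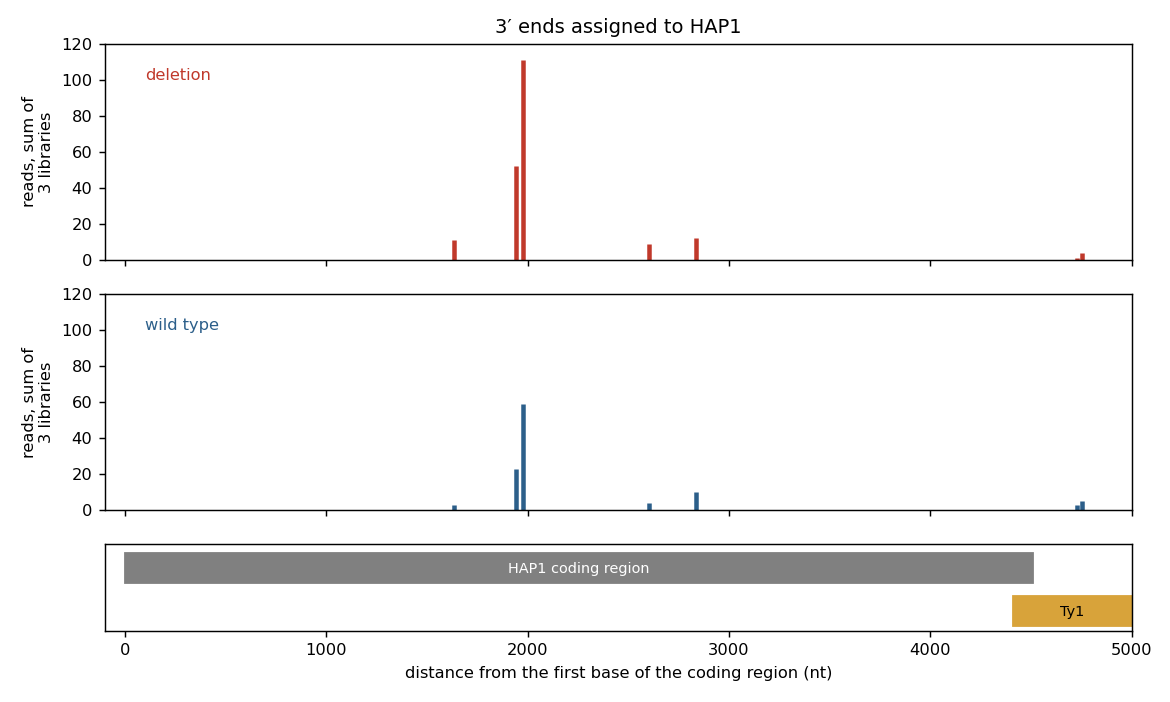
Reads at each HAP1 pA cluster against distance from the start codon in nt, summed over the 3 deletion libraries (top) and the 3 wild-type libraries (middle), with the coding region and the Ty1 element (bottom). The tallest bars, at 1944 and 1974 nt, stand inside the coding region in both genotypes, and the bars past the coding region stand in Ty1.

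Other regulators and enzymes also had ends inside the coding region. HMG2 had 2 clusters there, and 87.4 ± 3.09% of its reads in the deletion and 87.9 ± 4.01% in the wild type lay past the stop codon. UPC2 had 66.1 ± 0.962% of its reads past the stop codon in the deletion and 79.96 ± 12.1% in the wild type. CYB5 had 75.4 ± 2.25% and 67.7 ± 21.1%, on 70 reads in all. The groups of HMG2 and CYB5 overlapped. Those of UPC2 did not, with 66.7% as the highest deletion share and 68.75% as the lowest wild-type share. These shares came from 13 of 20, 8 of 12 and 16 of 24 reads in the deletion. In the wild type they came from 18 of 23, 13 of 14 and 11 of 16 reads. On so few reads the SD can understate the counting error. The gap was not tested, and its rate over all genes was not computed. With clusters of 20 or more reads alone, the UPC2 groups overlapped. The main cluster of ECM22, with 151 reads (80.7%), lay in a Ty4 long terminal repeat on the strand of the gene, chrXII:599570-599844.
ECM22 main site, chrXII:599808-599837, minus strand: aagtgatcattaataataaCatgagttgtt
A search of the genome with the 200 nt before each main cluster found 0 of the 28 genes with a copy of 100 nt or more at 95% identity or above. Perfect matches over all 200 nt were set aside as the gene itself, so an exact full-length copy could not be found. The HAP1 clusters in Ty1 were not searched.

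The use of single pA sites did not differ detectably between deletion and wild type in any gene of the pathway. Clusters with 20 or more reads in all entered diffSpliceDGE in edgeR, whose F test per gene compares the fold changes of its clusters with each other. It called 5 of 2380 genes (0.21%) and 0 of the 21 pathway genes with enough reads. The test has limited reach at this depth. In simulated counts over all genes, a 2-fold change of the most distal cluster was recovered in 23 of 193 genes (11.9%). A 4-fold change was recovered in 68.4%, so most 2-fold changes in site use would be missed. At an unadjusted p under 0.05, 1 of the 21 passed, ERG3 (4.76%, against 5.67% of all genes). The limma-voom form of the test called 0 of the 21 as well, with 1 at an unadjusted p under 0.05. The read-weighted mean 3′ end was later in the deletion in 10 of the 21 genes and earlier in 11, with a median shift of -0.24 nt against -0.39 nt over all genes. The groups were apart in 1 of the 21, ERG26, against 10.7% of all genes.

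ERG3 (YLR056W) had the smallest usage p of the pathway, with 3 clusters 121, 182 and 215 nt past the stop codon, spaced 61 and 33 nt apart. Their sequences are shown on the plus strand, with the deposited position in capitals.
ERG3 site at 121 nt, chrXII:255060-255089: aagatacgcatatcattatGatgtacacct
ERG3 site at 182 nt, chrXII:255121-255150: taaatttttgcgttcatttAatggctcttt
ERG3 site at 215 nt, chrXII:255154-255183: ctattctagtgaaaaaaaaAacagaaaatc
The site at 215 nt took most reads in every library, and it sits in a genomic run of A. Its share was 64.2%, 71.2% and 81.6% in the deletion and 78.9%, 88.9% and 81.5% in the wild type. The deletion libraries spread widely here, and deletion replicate 3 lay within the wild-type range. The middle site at 182 nt had 24.6%, 20.5% and 12.9% in the deletion and 13.6%, 6.35% and 12.6% in the wild type. Its mean share was 19.3 ± 5.95% in the deletion and 10.9 ± 3.93% in the wild type, again with deletion replicate 3 among the wild-type libraries. The read-weighted mean end of ERG3 was 196, 200.4 and 206 nt in the deletion and 203, 208 and 205 nt in the wild type. The mean over libraries was earlier in the deletion, with a shift of -4.96 nt, an unadjusted p of 0.0053 and an adjusted p of 0.61 in edgeR. The adjusted p in edgeR was 0.074 without deletion replicate 3 and 0.99 without deletion replicate 2.

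ERG26 (YGL001C) had clusters at 128, 200 and 241 nt, and its site nearest the stop codon was used more in every deletion library. The share of the 128-nt site was 26.7%, 27.5% and 27.7% in the deletion and 19.7%, 17.0% and 18.75% in the wild type. The groups did not overlap, with means of 27.3 ± 0.544% and 18.5 ± 1.35%. Counts behind these shares were small: 16 of 60, 14 of 51 and 23 of 83 for deletion replicates 1 to 3. For wild-type replicates 1 to 3 they were 12 of 61, 8 of 47 and 9 of 48. With counts this small the SD can understate the counting error. No other tested cluster of the pathway genes had shares apart, and by chance 10% of comparisons of 3 with 3 libraries would be. The rate over all clusters was not computed, and the shares within a gene depend on each other. In diffSpliceDGE the 128-nt cluster had an unadjusted p of 0.10. The mean end of ERG26 was earlier in the deletion, with a shift of -7.62 nt and an adjusted p in edgeR of 0.93. The 200-nt site, the main one, had overlapping shares of 56.6 ± 3.50% and 62.3 ± 5.82%.
ERG26 site at 128 nt, chrVII:495315-495344, minus strand: agaattgaaacacctaaaaCatcttgatga
ERG26 site at 200 nt, chrVII:495243-495272, minus strand: ctatgaagcgtcggggtaaTgcatgtaaat

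**Figure D5:**
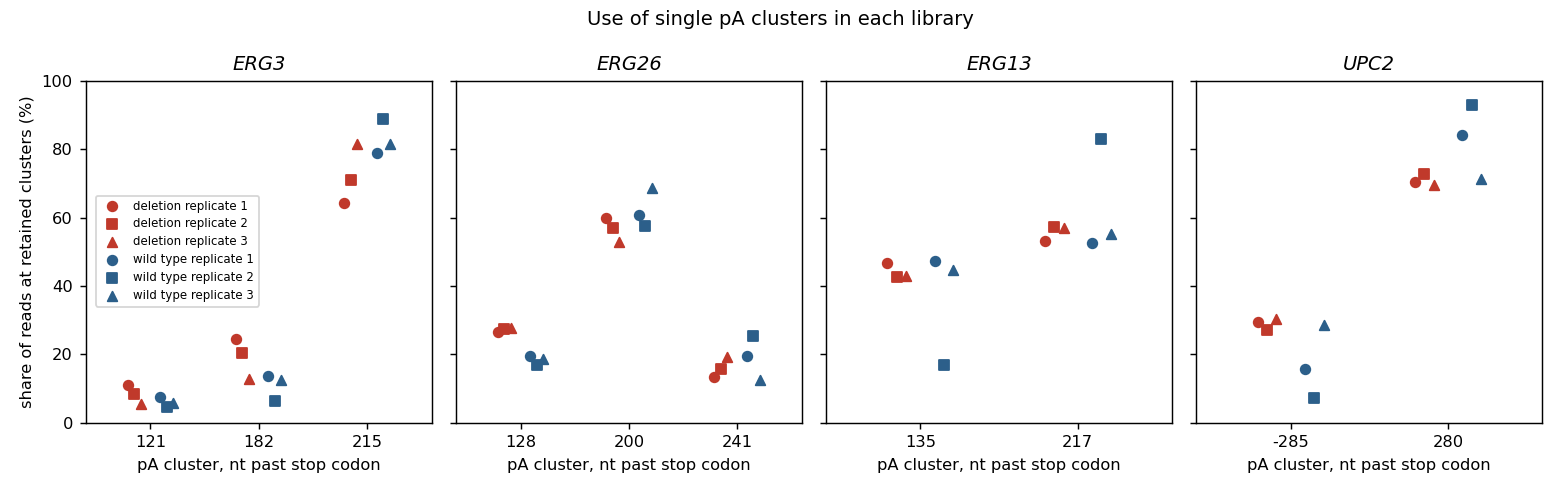
Share of the retained reads of a gene at each pA cluster, in percent, against the cluster's position in nt past the stop codon, 1 point per library, for ERG3, ERG26, ERG13 and UPC2. The ERG26 site at 128 nt lies between 26.7% and 27.7% in the deletion and between 17.0% and 19.7% in the wild type, while the other sites shown overlap between genotypes.

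UPC2 had a cluster inside its coding region, at -285 nt from the stop codon, and its main cluster at 280 nt. The inner cluster held 29.4%, 27.3% and 30.4% of the retained reads in the deletion and 15.8%, 7.14% and 28.6% in the wild type. Wild-type replicate 3 lay within the deletion range, and the other wild-type libraries lay below it. The shift of its mean end was -67.1 nt (adjusted p in edgeR 0.93), and -38.8 nt without wild-type replicate 2. ROX1 had 3 sites at 91, 296 and 337 nt, of which the first held 3.03%, 11.8% and 8.11% in the deletion and 17.9%, 9.52% and 21.4% in the wild type. These ranges overlapped, and the shift of 18.1 nt had an adjusted p in edgeR of 0.95. Without deletion replicate 2 the shift of ROX1 was 0.70 nt. ERG2 had its second site at 104 nt with 25%, 15.2% and 13.6% in the deletion and 12.2%, 5.26% and 17.6% in the wild type, overlapping groups and a shift of 2.56 nt (adjusted p in edgeR 0.95). In ERG13, wild-type replicate 2 stood apart from all other libraries: its site at 135 nt had 17.0% of the reads, against 42.7% to 47.3% in the other 5.

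The neighbouring pathways gave the same picture with an exception among cell-wall genes of anaerobic growth. Of the sterol ester and sterol transport genes, 14 of 28 listed were tested and 0 were called by edgeR, with a median log2 fold change of -0.02. The smallest p values there were those of YSP1, a sterol transfer protein also named LAM1 (0.33, SE 0.17), and KES1, an oxysterol-binding protein homolog (0.28, SE 0.15). The branches that use isoprenoids for other products had 8 of 12 genes tested, 0 called and a median of 0.02, with the smallest p for the farnesyltransferase subunit RAM1 (-0.48, SE 0.40) and the related prenyltransferase subunit CDC43 (-0.13, SE 0.21). Genes that act in degradation of the reductase Hmg2 or resemble insigs had 8 of 11 tested, 0 called and a median of -0.05, led by the ubiquitin ligase HRD1 (-0.26, SE 0.17) and its partner HRD3 (-0.24, SE 0.38). Heme synthesis and hypoxic genes had 10 of 21 tested, 0 called and a median of 0.00094, led by the hypoxic cytochrome oxidase subunit COX5B (0.42, SE 0.21) and the cytochrome b5 reductase CBR1 (0.25, SE 0.16). In these 4 lists 0 genes had an unadjusted p under 0.05 in edgeR.

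Of 9 anaerobic cell-wall mannoprotein genes, 3 were tested and DAN1 was called lower in the deletion (0.238% of all genes were). DAN1, which Rox1 and Mot3 are known to repress in air and Upc2 to activate without oxygen, had 4.79, 24.0 and 18.9 CPM in the deletion and 136, 30.4 and 54.3 CPM in the wild type. All deletion libraries were below all wild-type libraries, and wild-type replicate 1 was far above the rest. The log2 fold change of DAN1 was -2.33 (SE 0.43, adjusted p in edgeR 0.00045). Without wild-type replicate 1 it was -1.45 with an adjusted p in edgeR of 0.15, so the call rests on that library, and DESeq2 gave no adjusted p for DAN1. TIR1, of the same family, had 276, 328 and 277 CPM in the deletion and 391, 312 and 279 CPM in the wild type. Its groups overlapped, with a log2 fold change of -0.17 (SE 0.16, adjusted p in edgeR 0.78). TIR3, the remaining tested gene, went the other way, with overlapping groups and a log2 fold change of 0.15 (SE 0.33, adjusted p in edgeR 0.92).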

How the data were processed

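The deposited values are raw read counts for each pA cluster in each library. Per the series description, the authors used Bowtie2 to align reads of over 15 bp to sacCer3 (version: not given in the sources used here), filtered them for mapping quality and an untemplated tail, clustered their ends within 24 bp and assigned clusters to genes extended by up to 1000 bp past the coding region. A cluster needed at least 3 reads and 5% of its gene's reads. Every gene in the table has at least 2 clusters, so column totals are not library depths. All 6 columns matched a label, leaving 0 unmatched. Whether positions count from 0 or 1 is not given, so distances can be off by 1 nt. Gene models, promoters and site sequences came from RefSeq R64, which held 4013 of the 4014 genes.

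Counts were summed per gene and fitted with edgeR 4.0.16 in R 4.3.3 (TMM scaling, filterByExpr, group as the only term). Levels are TMM-scaled counts per 1e6 reads. Standard errors were derived from the F statistics. Usage was tested on clusters with 20 or more reads. Alternatives used DESeq2 1.42.0, limma 3.58.1, other filters and clusters, the replicate number as a block and leaving out each library. Scripts were tested on simulated data. Genome copies were searched with BLAST 2.17.0 and sequences read with Python 3.11.15. Values in every library are given for the 10 genes with the smallest p for level, the 5 with the smallest p for usage, and paralog pairs, and the 2 genes with the smallest p of each neighbouring list are named. The levels of ERG11, the site shares of ERG13 and HAP1 and the fold change of TIR3 were added after their values were seen. The genes and lists were chosen with earlier results of these data known.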

Additional observations from a re-analysis of the deposited data

How the results depend on the processing

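Under every alternative run, 0 pathway genes were called for level (12 alternatives) and 0 for site usage (13). Over all genes, the 44 level calls became 26 with DESeq2 and 27 with the most-read cluster of each gene, and 30 to 51 when 1 library was left out. The 5 usage calls became 2 with a minimum of 10 reads, 1 with a minimum of 50, 2 with limma-voom, 1 with the Simes combination, 1 with clusters past the stop codon and 2 with the 2 most-read clusters, and 0 to 4 when 1 library was left out. Same-numbered libraries had deviations correlated at -0.094, -0.028 and -0.011, which showed no pairing by number but cannot exclude it. With the replicate block there were 33 level and 2 usage calls over all genes and 0 among the pathway genes. The median log2 fold change of 0.06 lay between 0.04 and 0.06 under the other settings, and between -0.03 and 0.10 with 1 library left out. With the most-read cluster alone, ERG25 turned to -0.10 and CDC43 to 0.085. Leaving out 1 library turned the sign of 11 fold changes, the largest being that of ERG9, 0.32 with all libraries. Ranges were -0.27 to 0.12 for HMG2, -0.086 to 0.51 for ERG9, -0.040 to 0.14 for ERG1 and -0.11 to 0.21 for ERG11. They were -0.068 to 0.12 for ERG25, -0.30 to 0.20 for CYB5, -0.047 to 0.20 for ECM22 and -0.17 to 0.017 for ERG8. For ERG13 the range was -0.036 to 0.26, for ERG5 -0.043 to 0.11 and for ERG20 -0.22 to 0.027. Without a change of sign, IDI1 ranged from 0.18 to 0.65, ERG28 from 0.076 to 0.57, NCP1 from 0.096 to 0.40, HMG1 from 0.11 to 0.27, MVD1 from -0.25 to -0.019 and ERG24 from 0.028 to 0.17, and the end shifts of ERG3 from -7.36 to -2.74 nt and ERG2 from 1.12 to 3.78 nt. Among the neighbouring lists HRD3 ranged from -0.49 to 0.036, and DAN1 from -2.69 to -1.45. The cause was not tested. ARE2, CYB5 and IDI1, with under 100 reads each, are limited by depth, and genes with 1 cluster were not analysed here.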
